A study of Mus musculus with 8 samples.

Results

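The genes described here encode the cytochrome P450 enzymes of families 1 to 4 other than the Cyp2b and Cyp2c subfamilies, measured in mouse liver. They were chosen by name alone, as every gene whose symbol in the array annotation begins with Cyp1, Cyp2, Cyp3 or Cyp4 followed by a letter. The annotation names 59 such genes, and 52 of them, in 19 subfamilies, had a probe set that names that gene alone, out of 19935 genes measured in the same way. The other 7, Cyp2a4, Cyp2a5, Cyp3a41a, Cyp3a41b, Cyp3a59, Cyp4a32 and Cyp4v3, appear only on probe sets that name several genes and have no value here. Of the 52 measured members 3, Cyp2d13, Cyp2d37-ps and Cyp4f41-ps, are annotated as transcribed pseudogenes.

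RNA came from livers of male C57Bl/6 mice 10 to 12 weeks old that ate normal chow and lived in a cycle of 12 h light and 12 h dark, with the tissue taken at zeitgeber time 10 h. In 4 samples, labelled NS-DADm, the corepressors NCOR and SMRT both carry a mutation of the deacetylase-activating domain, the part that binds and activates the histone deacetylase HDAC3, and 4 samples are wild type (WT). Each sample was hybridised to 1 Affymetrix array. The labels give neither the zygosity of the mutations nor a statement that each array is a separate animal. The p-values therefore weigh a difference only against the scatter among these samples, and that scatter may be technical. All values are log2 intensities, and a difference is NS-DADm minus WT on that scale.

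P450 enzymes are haem proteins of the endoplasmic reticulum that insert an oxygen atom into their substrates with electrons passed on by P450 reductase and cytochrome b5. In the liver, families 1 to 3 mostly clear drugs, pollutants and steroids, and family 4 mostly hydroxylates fatty acids and eicosanoids. Their genes answer to ligand-sensing factors such as AhR, PXR, CAR and PPAR-alpha, and some are made mainly in one sex under the pulse pattern of growth hormone, which acts through STAT5.

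Between the genotypes 1 of the 52 members changed, Cyp2u1, which was lower in NS-DADm livers (limma, adjusted p = 0.032). Over all 19935 genes 0.271% were called in either direction and 0.11% were called lower, with 0.161% called higher. Most members differed little. The difference lay under 0.1 in size for 30 of 52, and the median was -0.035, against -0.011 over all genes. In 11 of the 52, or 21.2%, all 4 NS-DADm arrays lay below all 4 WT arrays, against 3.83% of all genes, and no member had the opposite separation, which 1.8% of all genes showed. Of these 11 members 6 are Cyp2d genes, whose close sequences can share probe signal, and outside Cyp2d the count was 5 of 42, or 11.9%. Among genes at or above the median level, 5.66% lay entirely lower in NS-DADm arrays, against 8 of the 30 members at such levels. At an unadjusted p under 0.05, 12 members were lower and 4 higher, against 5.6% and 3.72% of all genes. Of the 30 members at or above the median level 9 were lower and 3 higher at that p. Of all 9968 genes at such levels 894 were lower and 602 higher. Shares of all genes at this p, here and below, include genes under the median level, which reached it less often. Differences of at least 0.2 in size occurred in 11 members, the lowest in Cyp2u1 (-0.48) and the highest in Cyp4a14 (0.85).

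**Figure D1:**
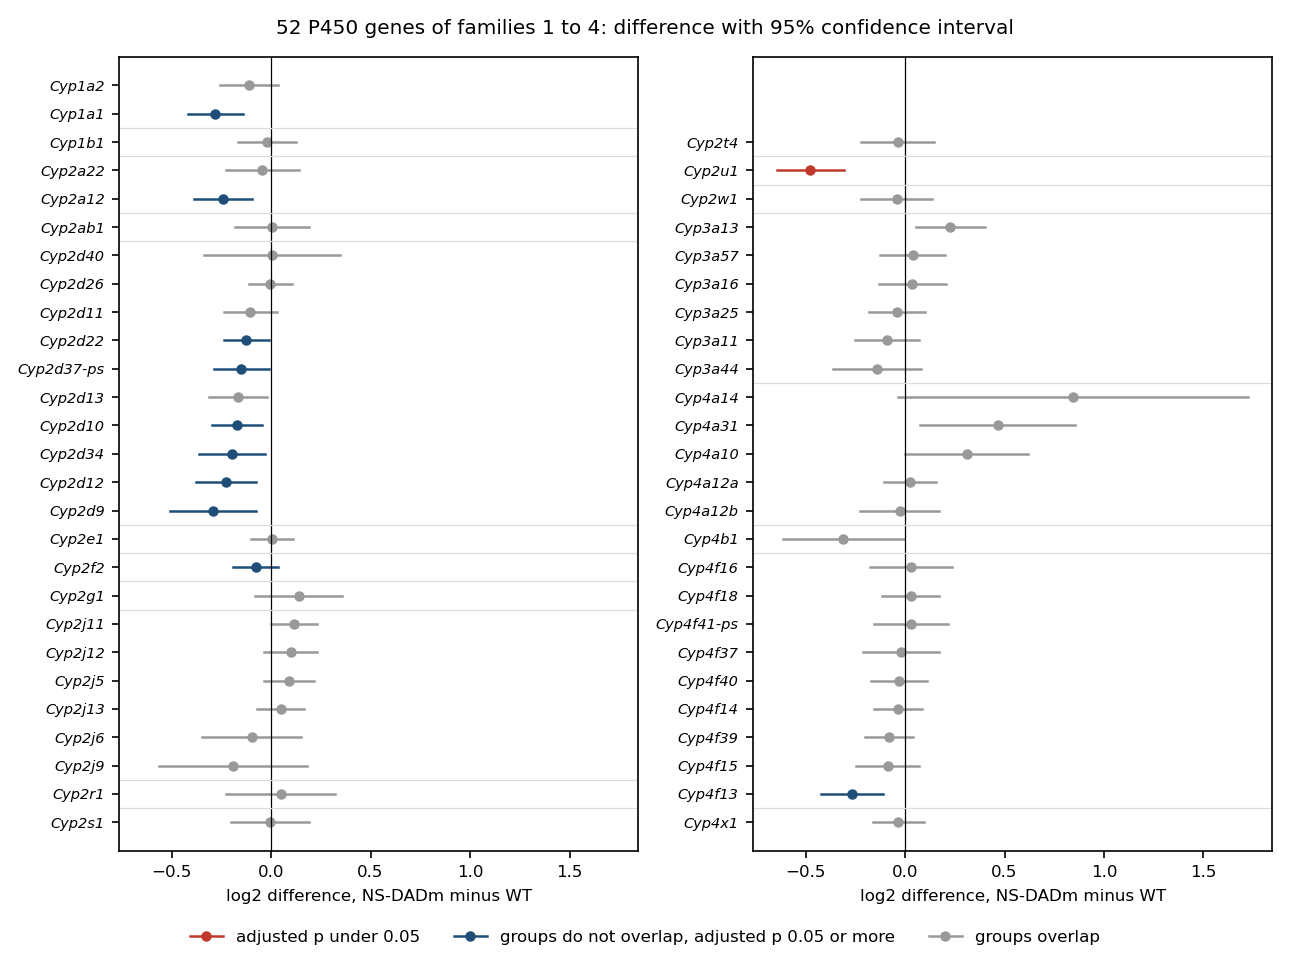
Difference between 4 NS-DADm and 4 WT arrays on the log2 scale (horizontal axis) for each of the 52 measured genes, grouped by subfamily, with points for the limma estimate and lines for its 95% confidence interval. Cyp2u1, in red, is the 1 gene with an adjusted p under 0.05; the 10 genes in blue have groups that do not overlap and did not pass the test, and Cyp4a14 has the widest interval, from -0.03 to 1.73.

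Cyp2u1 encodes an enzyme that hydroxylates long-chain fatty acids such as arachidonic acid. Its values were 10.44, 10.42, 10.22 and 10.45 in WT replicates 1 to 4 and 9.90, 9.76, 9.93 and 10.04 in NS-DADm replicates 1 to 4. Every NS-DADm array lay below every WT array, and the lowest WT array, replicate 3, stood apart from the other WT arrays. The mean fell from 10.38 ± 0.11 to 9.91 ± 0.12 (SD, n = 4 each), a difference of -0.48 (SE 0.076, 95% confidence interval -0.64 to -0.31, limma adjusted p = 0.032), or 0.719-fold. The size changed little whichever array was left out, between -0.53 and -0.43, but the adjusted p was above 0.05 without any 1 of 6 arrays: NS-DADm replicates 1, 2 and 3 (0.0874, 0.103 and 0.0959) and WT replicates 1, 2 and 4 (0.0915, 0.166 and 0.0757). It was also above 0.05 after each array's median was subtracted (0.0817), within a range of 0.0199 to 0.0817 over the processing alternatives.

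The nearest measured protein-coding genes on either side of Cyp2u1 in the GRCm38.p6 annotation did not pass the test. Hadh, which encodes a mitochondrial enzyme of fatty acid oxidation, had means of 12.82 ± 0.04 (WT) and 12.89 ± 0.03 (NS-DADm), and all NS-DADm arrays lay above all WT arrays (difference 0.07, limma adjusted p = 0.756). Sgms2, which encodes a sphingomyelin synthase, was at 9.82 ± 0.20 and 9.78 ± 0.18 (adjusted p = 0.977), with a difference of -0.04 that turned to 0.03 when NS-DADm replicate 2 was left out and to 0.04 when WT replicate 4 was. In liver tissue, fewer cells of a type and less RNA per cell cannot be told apart. Of 12 markers of sinusoidal endothelial cells, the lining of the liver's small vessels, all 12 had a difference below 0 (median -0.28, none past the limma test and 8 at an unadjusted p under 0.05, against 9.33% of all genes at that p), or 11 of 12 without NS-DADm replicate 1. All 12 markers lay at or above the median level of genes, where 1496 of 9968 genes had such a p. The markers' mean level per array ran from 9.54 to 9.70 in WT and from 9.05 to 9.68 in NS-DADm livers, and the lowest marker had a WT mean of 8.37. The part of these cells in the fall of Cyp2u1 was not tested.

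**Figure D2:**
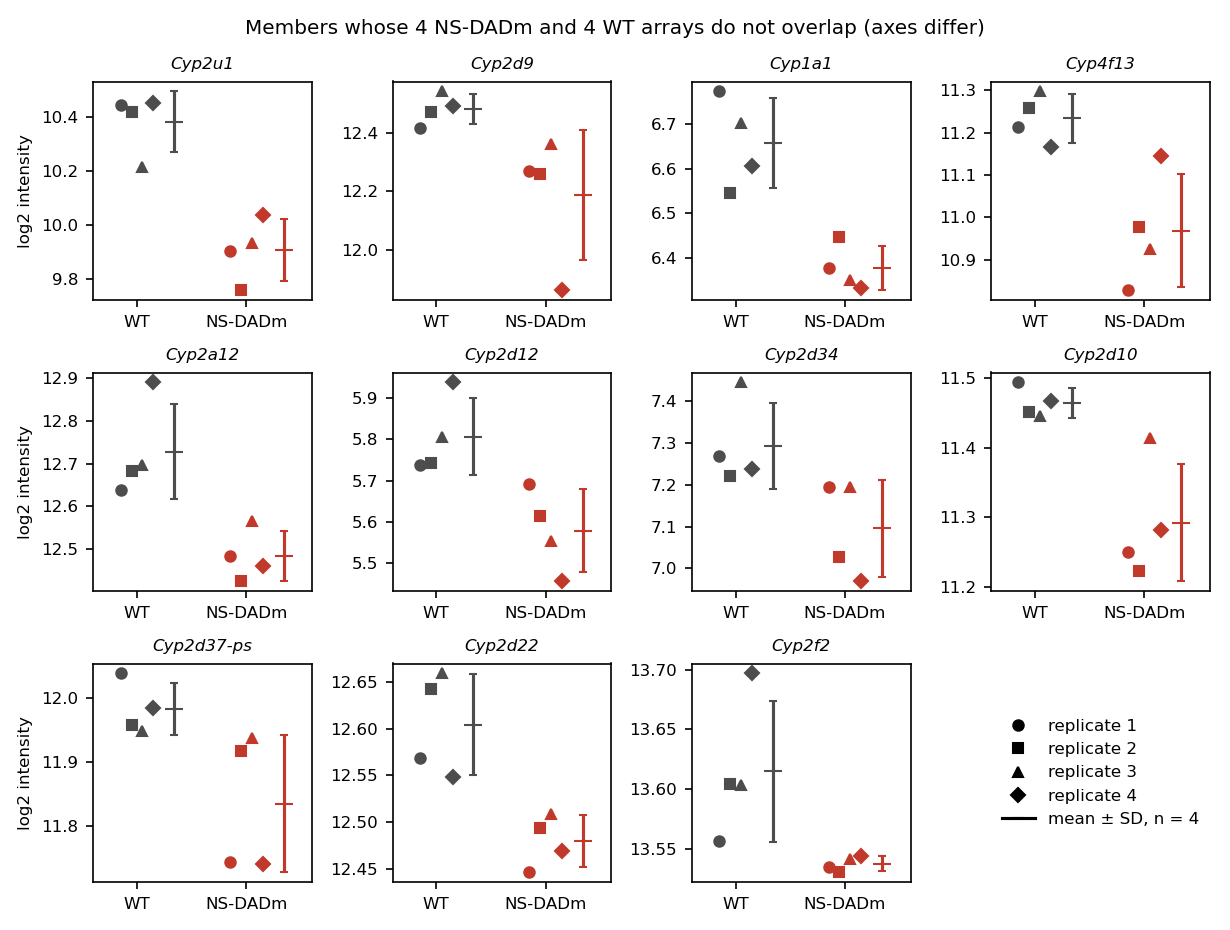
Log2 intensity (vertical axis, a different range in each panel) on the 4 WT and 4 NS-DADm arrays for the 11 genes whose groups do not overlap, with a symbol for each replicate number and bars for the mean and SD. The gap between groups is widest for Cyp2u1, between 10.04 and 10.22, and narrowest for Cyp2d37-ps and Cyp2f2.

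Among the enzymes of drugs and pollutants, the Cyp1a genes were slightly lower in NS-DADm livers without passing the test. Cyp1a1 and Cyp1a2 oxidise aromatic hydrocarbons and amines and are classical targets of AhR. Cyp1a1, a gene with little basal signal in liver, was at 6.77, 6.54, 6.70 and 6.61 in WT and 6.38, 6.45, 6.35 and 6.33 in NS-DADm arrays. The groups did not overlap, and the difference of -0.28 (SE 0.062, limma adjusted p = 0.127) lay in a range of intensities below the median gene, at 7.59. Cyp1a2 was at 13.18, 13.09, 13.12 and 13.06 in WT and 13.04, 12.98, 13.14 and 12.87 in NS-DADm arrays, with groups that overlapped (difference -0.11, 95% confidence interval -0.26 to 0.03). Cyp1b1, which acts on steroids and hydrocarbons mainly outside hepatocytes, had a difference of -0.02 (95% confidence interval -0.17 to 0.13), or 0.02 without WT replicate 3.

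The receptor gene Ahr itself was at -0.23 (limma adjusted p = 0.647). Arnt, another listed transcription factor of P450 genes, was at 0.22 (adjusted p = 0.467). AhR targets outside the P450 genes lay at or above 0: all 5 measured of 6 were above 0, or 4 of 5 without NS-DADm replicate 2 or WT replicate 4. Their differences ran from 0.009 to 0.44, with a median of 0.12. The lowest had a WT mean of 6.22, and 3 of the 5 lay at or above the 25th percentile of gene levels. None passed the limma test, and 2 had an unadjusted p under 0.05, against 9.33% of all genes. The largest difference was in Nqo1, a quinone reductase, with means of 7.48 ± 0.09 (WT) and 7.93 ± 0.15 (NS-DADm) and no overlap (difference 0.44, limma adjusted p = 0.0591). It passed without NS-DADm replicate 4 (adjusted p = 0.0460) or WT replicate 4 (0.0452), and over the processing alternatives its adjusted p ran from 0.0225 to 0.122.

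The Cyp2d genes, a cluster of drug and steroid hydroxylases on chromosome 15, were the largest subfamily and had most genes on one side of 0. Of the 10 measured, 9 were below 0, against 55.7% of all genes, with a median of -0.16. In 6 all NS-DADm arrays lay below all WT arrays, against 3.83% of all genes and 5.66% of those at or above the median level. Close copies can share probe signal, so these 6 may not be independent results. At an unadjusted p under 0.05 there were 7 Cyp2d genes, all lower, against 5.6% of all genes lower at that p. For genes at or above the median level that count was 894 of 9968. No Cyp2d gene passed the adjusted test, whose lowest value among them was 0.292 for Cyp2d12, a gene with low signal on these arrays (5.81 ± 0.09 in WT, 5.58 ± 0.10 in NS-DADm). The subfamily's median deviation from the WT mean was -0.14, -0.15, -0.07 and -0.22 in NS-DADm replicates 1 to 4, and between -0.03 and 0.01 in the WT arrays. Each NS-DADm array thus had a lower median than each WT array.

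Cyp2d9, a testosterone hydroxylase made mainly in male liver, had the lowest difference of the subfamily. It was at 12.42, 12.47, 12.54 and 12.49 in WT and 12.27, 12.26, 12.36 and 11.86 in NS-DADm arrays (difference -0.29, SE 0.097, limma adjusted p = 0.349). NS-DADm replicate 4 was far below the others, and without it the difference was -0.18. Cyp2d10 was at 11.49, 11.45, 11.44 and 11.47 in WT and 11.25, 11.22, 11.41 and 11.28 in NS-DADm arrays, a difference of -0.17 (SE 0.056, adjusted p = 0.341) with the third NS-DADm array near the WT values. The differences of Cyp2d34 (-0.20), Cyp2d37-ps (-0.15) and Cyp2d22 (-0.12) had the same lack of overlap. Cyp2d13 (-0.16) and Cyp2d11 (-0.10) overlapped the WT range on 1 NS-DADm array each.

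In the order of the cluster in the GRCm38.p6 annotation, the 8 genes from Cyp2d22 to Cyp2d37-ps all lay below 0, and the 2 at the far end lay near 0. Cyp2d26 had means of 13.44 ± 0.05 (WT) and 13.44 ± 0.02 (NS-DADm), with a 95% confidence interval of the difference from -0.11 to 0.11. Its signal lies near the top of the arrays' range, where differences can be compressed. Cyp2d40 was at 9.79, 10.19, 9.92 and 9.81 in WT and 10.17, 10.14, 9.99 and 9.43 in NS-DADm arrays, so that NS-DADm replicate 4 lay below every WT array and the others within their range. Its interval, from -0.34 to 0.35, includes the differences of the other Cyp2d genes, and the difference between the genes was not tested.

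**Figure D3:**
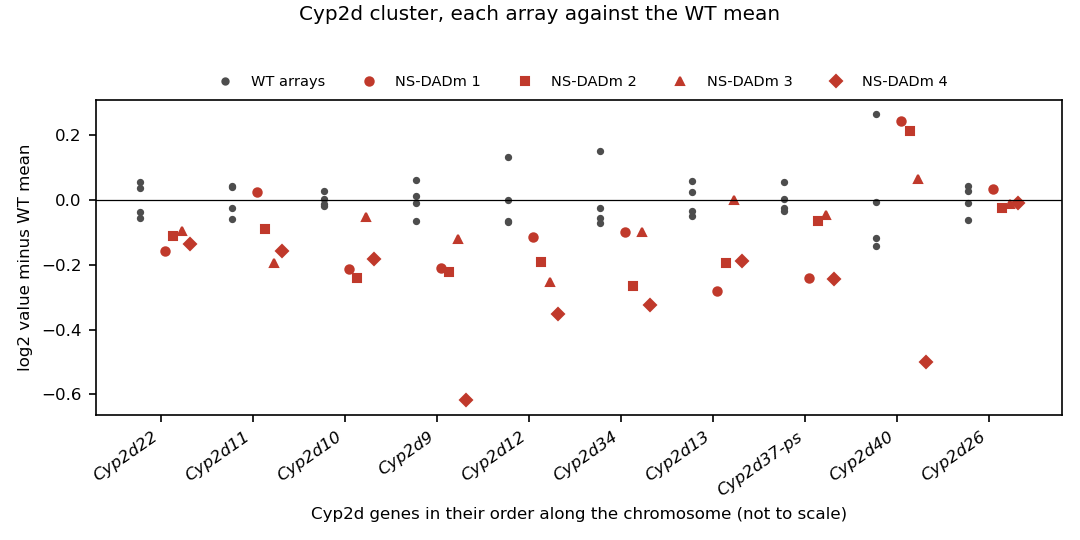
Log2 value minus the WT mean (vertical axis) of the 10 Cyp2d genes in their order along the chromosome, with grey points for WT arrays and red symbols for the 4 NS-DADm arrays. From Cyp2d22 to Cyp2d37-ps nearly all red symbols lie below 0, Cyp2d26 lies at 0, and NS-DADm replicate 4 is lowest for Cyp2d9 (-0.62) and Cyp2d40 (-0.50).

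The sequences just upstream of 4 of these genes are shown because the genes are close copies of one another, which lets the likeness of the sequences be set beside the differences in level. They are RefSeq promoter windows of the GRCm38.p6 build, at most 250 bases before the gene's start and outside its annotated span, written 5′ to 3′ on the gene's strand: Cyp2d9 at chr15:82452127-82452376 on the plus strand, and on the minus strand Cyp2d11 at chr15:82394023-82394272, Cyp2d10 at chr15:82407254-82407444 and Cyp2d40 at chr15:82764123-82764372. Capitals mark the letters TATAAA on either strand, the core of a TATA box.
Cyp2d9: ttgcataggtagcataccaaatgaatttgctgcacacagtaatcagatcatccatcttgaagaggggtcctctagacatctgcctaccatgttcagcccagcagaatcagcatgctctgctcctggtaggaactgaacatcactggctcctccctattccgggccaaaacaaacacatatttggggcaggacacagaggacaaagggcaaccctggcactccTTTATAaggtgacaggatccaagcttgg
Cyp2d11: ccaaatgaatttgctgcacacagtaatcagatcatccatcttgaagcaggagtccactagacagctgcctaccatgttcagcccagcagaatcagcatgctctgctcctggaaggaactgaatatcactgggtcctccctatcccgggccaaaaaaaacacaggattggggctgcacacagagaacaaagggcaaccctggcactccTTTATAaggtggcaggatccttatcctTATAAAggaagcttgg
Cyp2d10: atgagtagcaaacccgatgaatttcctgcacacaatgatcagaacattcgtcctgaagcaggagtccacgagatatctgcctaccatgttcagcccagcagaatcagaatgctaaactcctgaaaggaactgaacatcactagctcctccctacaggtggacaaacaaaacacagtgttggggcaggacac
Cyp2d40: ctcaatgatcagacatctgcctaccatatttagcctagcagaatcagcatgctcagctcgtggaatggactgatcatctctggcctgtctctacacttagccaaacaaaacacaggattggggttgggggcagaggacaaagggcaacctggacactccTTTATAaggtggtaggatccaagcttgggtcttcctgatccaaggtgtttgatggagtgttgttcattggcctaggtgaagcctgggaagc
The windows of Cyp2d9 (difference -0.29) and Cyp2d11 (-0.10) were identical at 93.6% of 234 aligned bases. Cyp2d9 and Cyp2d10 (-0.17) were identical at 82.1% of 190, and Cyp2d9 and Cyp2d40 (0.01) at 80.7% of 181. The letters TATAAA, searched on both strands, occurred in the full 250-base windows of all 5 Cyp2d genes matched to the promoter table. In Cyp2d10 and Cyp2d26 the part of the window outside the annotated span, 191 and 43 bases long, held no match. Over the 38 members matched, 14 of 44 full windows had the letters, against 12.4% of all 32851 windows. The STAT motif TTCNNNGAA, whose reverse complement is itself, was in 4 of the 44 (Cyp2j11, Cyp2j12, Cyp4b1 and Cyp4f13) and in 7.02% of all windows. The HNF4A motif CAAAGTCCA was in 2 of the 44 (Cyp3a11 and Cyp3a16) and in 0.384% of all. These matches describe letters and are not measured binding sites.

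The other family 2 enzymes of foreign compounds and steroids gave 1 further separation of some size. Cyp2a12, a steroid hydroxylase of liver, was at 12.64, 12.68, 12.70 and 12.89 in WT and 12.48, 12.43, 12.57 and 12.46 in NS-DADm arrays. The groups did not overlap, and the difference was -0.24 (SE 0.066, limma adjusted p = 0.226). Cyp2f2, which activates naphthalene in lung and liver, was also lower on every NS-DADm array, by -0.08, with values of 13.56 to 13.70 in WT and 13.53 to 13.54 in NS-DADm livers. Cyp2e1, the ethanol- and acetaminophen-oxidising enzyme of pericentral hepatocytes, had means of 13.78 ± 0.02 (WT) and 13.79 ± 0.03 (NS-DADm). Its difference of 0.006, or -0.011 without NS-DADm replicate 3, had a 95% confidence interval of -0.10 to 0.11. Signals of 13 and above, which 6 members had on average, lie near the top of the arrays' range of 3.43 to 14.37, where differences can be compressed.

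The Cyp3a genes, which oxidise drugs, bile acids and steroids and in part answer to PXR, had no member past the test. Of the 6 measured, 1 had an unadjusted p under 0.05, against 9.33% of all genes. That was Cyp3a13, at 11.46, 11.56, 11.58 and 11.75 in WT and 11.96, 11.86, 11.75 and 11.69 in NS-DADm arrays. It was higher on 3 of 4 NS-DADm arrays than on any WT array (difference 0.23, SE 0.078, limma adjusted p = 0.365). Cyp3a11, the main inducible enzyme of the subfamily, had a difference of -0.09 (95% confidence interval -0.25 to 0.07) and Cyp3a25 one of -0.04. The subfamily's median difference was -0.002 over 6 genes.

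Sex-biased members did not move as a block. Of the 5 listed female-biased genes 2 were measured: Cyp3a44 was at -0.14 (limma adjusted p = 0.771), and Cyp3a16, near the low end of the intensities, at 0.04, or -0.03 without WT replicate 2. Of the 4 male-biased genes Cyp2u1 fell and Cyp2d9 was at -0.29, while Cyp4a12a (0.03) and Cyp4a12b (-0.03) lay near 0. Cyp4a12b turned to 0.05 when NS-DADm replicate 4 was left out, to 0.02 when WT replicate 4 was and to 0.02 with array weights. The 95% confidence intervals of both Cyp4a12 genes lay within -0.225 and 0.171. The male-biased list's mean per array ran from 12.14 to 12.24 in WT and from 11.84 to 12.10 in NS-DADm livers. That mean includes Cyp2u1 and Cyp2d9, so it restates their lower values and adds no separate result. The list's median difference was -0.160 with 3 of 4 genes below 0. Without NS-DADm replicate 4 it was -0.065 with 2 of 4 below 0. These genes entered the list for a known sex bias, and the earlier result for Cyp2u1 was known when it was drawn up.

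In the growth hormone and STAT5 axis, 11 of 11 genes were measured, with 0 past the limma test and a median of -0.01. At an unadjusted p under 0.05 there were 3, against 9.33% of all genes and 1496 of the 9968 at or above the median level. Socs2, a STAT5-induced inhibitor of the pathway, had the largest value, with means of 9.33 ± 0.34 (WT) and 10.50 ± 0.45 (NS-DADm), and was higher on all 4 arrays (difference 1.18, limma adjusted p = 0.0665, or 0.0248 without NS-DADm replicate 4). Bcl6, a repressor that shares sites with STAT5, was at -0.89 (adjusted p = 0.11, or 0.0460 without that array) and lower on all 4 NS-DADm arrays.

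Among fatty acid hydroxylases the Cyp4a genes had differences from -0.03 to 0.85, none past the test. Cyp4a10, Cyp4a14 and Cyp4a31 are of the type induced by PPAR-alpha, and Cyp4a12a and Cyp4a12b are the male-biased enzymes that make 20-hydroxyeicosatetraenoic acid. Cyp4a14 was at 10.54, 11.05, 12.49 and 12.50 in WT and 12.31, 12.19, 12.88 and 12.58 in NS-DADm arrays. The WT arrays fell into a lower and a higher pair, and the NS-DADm values overlapped the higher pair. The difference of 0.85, or 1.80-fold, had a 95% confidence interval of -0.03 to 1.73 and did not pass the test (limma adjusted p = 0.559). It was 0.48 without WT replicate 1 and 1.13 without WT replicate 4.

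Cyp4a31 was at 10.95, 11.20, 11.78 and 11.59 in WT and 11.86, 11.64, 12.20 and 11.67 in NS-DADm arrays (difference 0.47, adjusted p = 0.426). Cyp4a10 was at 12.01, 12.23, 12.68 and 12.57 in WT and 12.81, 12.62, 12.82 and 12.47 in NS-DADm arrays (0.31, adjusted p = 0.534). In all 3 genes WT replicates 1 and 2 were the lowest of the 8 arrays, and the range within WT was wider than the difference between groups. Another probe set names Cyp4a10 and Cyp4a31 together, and copies this close can share probe signal, so their values may not be independent.

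PPAR-alpha's own transcript, Ppara, had means of 11.82 ± 0.07 (WT) and 11.60 ± 0.07 (NS-DADm) and was lower on all 4 NS-DADm arrays (difference -0.22, limma adjusted p = 0.238). Of its targets outside the P450 genes 14 of 16 were measured, 8 above 0 and 6 below, with a median of 0.04. None passed the limma test. An unadjusted p under 0.05 occurred in 7, against 9.33% of all genes and 1496 of the 9968 at or above the median level. Of these 7, Pdk4 (-0.26) and Angptl4 (-0.17, lower on all 4 NS-DADm arrays) were lower, and the rest were higher. The largest difference of the list was in Vnn1, which encodes pantetheinase, at 10.87 ± 0.23 and 11.47 ± 0.09 (0.60, adjusted p = 0.0514, between 0.0273 and 0.122 over the processing alternatives and 0.0414 without WT replicate 1). Ehhadh, of peroxisomal fatty acid oxidation, was at 0.36 (adjusted p = 0.127). Vnn1 and Ehhadh were higher on all 4 NS-DADm arrays.

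**Figure D4:**
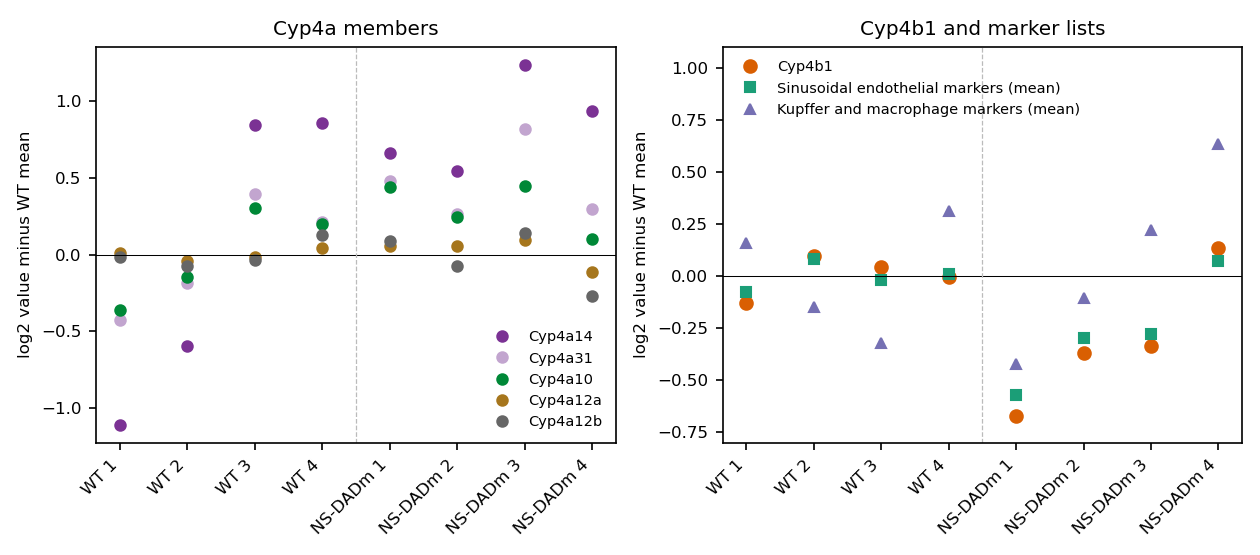
Log2 value minus the WT mean (vertical axis) on each of the 8 arrays for the 5 Cyp4a genes (left) and for Cyp4b1 and the mean of 2 marker lists (right), with a dashed line between genotypes. On the left, Cyp4a14, Cyp4a31 and Cyp4a10 are lowest on WT replicates 1 and 2; on the right, Cyp4b1 lies above its WT mean only on NS-DADm replicate 4 among the NS-DADm arrays, as does the endothelial list.

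Cyp4b1, which hydroxylates fatty acids and some plant toxins, was at 8.97, 9.20, 9.14 and 9.10 in WT and 8.43, 8.73, 8.77 and 9.24 in NS-DADm arrays. It was below every WT array on 3 NS-DADm arrays and above them all on NS-DADm replicate 4 (difference -0.31, SE 0.138, limma adjusted p = 0.523, or -0.46 and adjusted p = 0.0628 without that array). The endothelial markers had the same order over the NS-DADm arrays, with list means of 9.05, 9.32, 9.34 and 9.68, and so did 12 Kupffer and macrophage markers, with 8.66, 8.98, 9.31 and 9.72. The means of the stellate, periportal and hepatocyte markers and of the CAR and PXR targets had that order too. Over WT replicates 1 to 4 the Kupffer list was at 9.25, 8.94, 8.77 and 9.40, which was not the order of Cyp4b1. The endothelial list was at 9.54, 9.70, 9.60 and 9.63. Like Cyp4b1 it was lowest on WT replicate 1 and highest on WT replicate 2, with replicates 3 and 4 in the opposite order. The part of these cells in the values of Cyp4b1 was not tested.

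The Cyp4f genes, which inactivate leukotriene B4 and hydroxylate fatty acids, had a median of -0.03 over 9 genes. Cyp4f13 was at 11.21, 11.26, 11.30 and 11.17 in WT and 10.83, 10.98, 10.92 and 11.14 in NS-DADm arrays. All NS-DADm arrays lay below WT, with replicate 4 just under the lowest WT array (difference -0.26, SE 0.071, limma adjusted p = 0.218). Its neighbour Cyp4f14 had a difference of -0.04 (95% confidence interval -0.16 to 0.08), and Cyp4f15 one of -0.09. The other 6 lay between -0.08 and 0.03.

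The Cyp2j genes, epoxygenases of arachidonic acid, had a median of 0.07 over 6 genes, or -0.10 over the 3 left when genes with low signal were filtered out. Cyp2j5, abundant in kidney and liver, had means of 12.58 ± 0.07 (WT) and 12.67 ± 0.06 (NS-DADm) (difference 0.09, 95% confidence interval -0.04 to 0.22). Cyp2j9 was at 9.11, 9.14, 9.11 and 9.53 in WT and 8.75, 8.75, 9.08 and 9.55 in NS-DADm arrays, with the fourth array of each group well above the others (difference -0.19, or -0.36 without NS-DADm replicate 4 and -0.09 without WT replicate 4). Cyp2j6 was at -0.10, or 0.01 without NS-DADm replicate 4. Cyp2j11, with low signal, was at 0.11 with a limma adjusted p of 0.53 and was higher on 3 of 4 NS-DADm arrays than on any WT array.

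Epoxides made by such enzymes are opened by epoxide hydrolases, of which 4 of 4 were measured. None passed the limma test, and 1 had an unadjusted p under 0.05, against 9.33% of all genes. That was Ephx2, the soluble hydrolase, with means of 12.55 ± 0.06 (WT) and 12.28 ± 0.04 (NS-DADm), lower on all 4 arrays (difference -0.27, adjusted p = 0.0847).

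The remaining members lay close to 0. Cyp2r1, a vitamin D hydroxylase, was at 9.28 ± 0.27 and 9.33 ± 0.14 (difference 0.05, or -0.08 without WT replicate 1). Cyp2g1, an enzyme of olfactory tissue, was at 0.14 (95% confidence interval -0.08 to 0.36). Cyp2ab1 (0.005), Cyp2s1 (-0.005), Cyp2t4 (-0.04), Cyp2w1 (-0.04) and Cyp4x1 (-0.03), most of them known from tissues other than liver, did not pass the test, and in the first 4 of these the sign changed when single arrays were left out. For 47 of the 52 members the 95% confidence interval lay inside a 1.5-fold change in either direction. The 5 for which it did not were Cyp2u1, Cyp4a10, Cyp4a14, Cyp4a31 and Cyp4b1. A narrow interval does not show that a transcript was unchanged where differences can be compressed. This limit applies at low signal and near the top of the range. Of the 52 members 22 lay below the median gene, and 6 had means above 13.

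Of the listed genes that serve P450 enzymes as a whole, none that was measured passed the limma test. Of the electron donors 4 of 5 were measured, and P450 reductase was not among these 4. The 4 measured donors had 0 at an unadjusted p under 0.05 and a median of 0.04. Their largest value was in Cyb5b, an outer-membrane cytochrome b5 (0.13). Of haem synthesis and breakdown 11 of 12 were measured, with 0 at an unadjusted p under 0.05, a median of 0.04 and the largest value in Hmox1 (0.24, or -0.06 without NS-DADm replicate 4). Of 13 transcription factors of P450 genes 12 were measured, with a median of -0.05. At an unadjusted limma p under 0.05 there were 4, against 9.33% of all genes. All 12 lay at or above the median level, where 1496 of 9968 genes had such a p. Arnt (0.22) and Nfe2l2 (0.22) were higher, and Ppara (-0.22) and Nr1i3 (-0.21), which encodes CAR, were lower. The limma adjusted p of Nr1i3 was 0.365. The largest difference of the list was in Nr0b2, a bile acid-induced corepressor, at -0.79 (adjusted p = 0.571), which was not among these 4. CAR and PXR targets outside the P450 genes, 8 of 12 measured, had a median of 0.08. At an unadjusted p under 0.05 they had 1 gene, against 9.33% of all genes. The list's median turned to -0.04 when NS-DADm replicate 4 was left out and to -0.02 with array weights. The largest was Slco1a4 at 0.22, or -0.06 without NS-DADm replicate 4 and -0.01 with array weights.

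Markers of hepatocytes, the main cells of the labelled tissue, 9 of 10 measured, had WT means of 11.93 to 13.96 and a median difference of 0.01, with the largest in Tat (-0.20). Pericentral markers outside the P450 genes had a median of -0.12 over 10 genes. Their mean was 10.60 on NS-DADm replicate 4, below the other 7 arrays (10.83 to 11.05), and the largest difference was in Oat (0.45, limma adjusted p = 0.0902, or 0.0254 without NS-DADm replicate 4). NS-DADm replicate 4 was the lowest of the 8 arrays for 13 of the 52 P450 members. Periportal markers, 5 of 8 measured, had a median of 0.05, with Pck1 at -0.23. Medians of the other cell lists were 0.10 for Kupffer cells and macrophages (largest in Marco, 0.28), 0.12 for neutrophils (S100a9, 0.21), 0.05 for lymphocytes (Nkg7, 0.30), -0.05 for stellate cells (Reln, -0.35), 0.01 for cholangiocytes (Epcam, -0.09) and 0.01 for adipocytes (Fabp4, 0.14, or -0.07 without NS-DADm replicate 4). The Kupffer list had 10 of 12 markers above 0, but 1 of 12 without NS-DADm replicate 4 (median -0.11) and 3 of 12 without WT replicate 3 (median -0.03), and the stellate list's median was 0.01 without NS-DADm replicate 1. WT means of the neutrophil markers (4.745 to 7.345) and of the lymphocyte markers (5.135 to 7.437) all lay below the median gene, at 7.59. The medians near 0 of the hepatocyte, cholangiocyte, adipocyte and growth hormone lists also changed sign when single arrays were left out. Among the endothelial markers Gpr182 had the lowest value (-0.47, limma adjusted p = 0.381, or -0.64 and 0.0374 without NS-DADm replicate 4).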

How the data were processed

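Transcript levels were measured in 4 NS-DADm and 4 WT liver samples, 1 array each. The authors deposited 1 table of 28270 probe sets, taken as log2 intensities from its values (3.43 to 14.37); RMA and Partek made it, per the submitters' processing notes, with versions and settings not given in the sources used here. RMA corrects background, normalizes arrays and compresses small differences at low signal. Array medians ran from 7.39 to 7.50. No batch or detection call was at hand, and how far signals exceed background is unknown.

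Probe sets naming 1 gene (21780) were named from the platform annotation, and each gene took the one with the highest mean; every P450 member had 1, so that choice did not touch them. The comparison of the groups used limma 3.58.1 under R 4.3.3 (lmFit, eBayes, two-sided, Benjamini-Hochberg adjustment over 19935 genes, threshold 0.05). No filter was applied. Transcripts of the mutated genes were not analysed here. Lists are described by counts and medians, without a set test. The fit was tested on simulated data. Named members were those past the threshold, those whose groups did not overlap, the highest and the most different of each subfamily, and the sex-biased ones; of other lists, the most different gene. Cyp2d11, Cyp2d13, Cyp2d40, Cyp2j6, Cyp2j11, Cyp3a25, Cyp4a10, Cyp4a31, Cyp4f14, Ahr, Arnt, Nfe2l2, Nr1i3, Ppara, Ehhadh, Pdk4, Angptl4, Bcl6, Onecut1, Cish, Igf1, Igfals and both neighbours of Cyp2u1 were named after their values were seen. Members and lists were chosen with earlier results of these data known. Alternatives were the mean of probe sets, all probe sets, filters, quantile and median scaling, variance models, array weights, a replicate block and each array left out. Promoters came from RefSeq (GRCm38.p6), aligned with Biopython 1.88.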

Additional observations from a re-analysis of the deposited data

Results flagged for a closer look

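Single arrays stood apart from the other 3 of their group in 8 of 134 groups examined, by a gap to the nearest array that exceeded Dixon's 95% critical value; chance gives about 1 in 20. WT replicate 3 was low for Cyp2u1 (10.22, against 10.42 to 10.45), which brings the WT mean toward the NS-DADm values. WT replicate 4 was high for Cyp2j9 (9.53, against 9.11 to 9.14) and low for Cyp2t4 (5.75, against 6.04 to 6.08), and WT replicate 2 was low for Cyp2s1 (7.17, against 7.54). NS-DADm replicate 3 was high for Cyp2e1 (13.84, against 13.76 to 13.77). NS-DADm replicate 4 was low for Cyp2j5 (12.59, against 12.69 to 12.71) and Cyp4f14 (11.67, against 11.79 to 11.81), and high for S100a9 (7.02, against 6.89 to 6.91).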

How the results depend on the processing

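Cyp2u1 stayed below WT under all 9 processing alternatives and all 8 left-out arrays, but the count of called members went from 1 to 0 after array medians were subtracted and to between 0 and 1 as arrays were left out, and was 16 at an unadjusted p under 0.05. The replicate numbers shared by the groups gave no clear pairing of the samples (correlations of deviations -0.102 to 0.247, 3 of 8 arrays closest to their own number). A batch shared by arrays of equal number was not tested. With the replicate block 1 member, Cyp2u1, was called, and for all genes called the count was 105, against 54 without the block, 109 with array weights and 13 to 126 as arrays were left out. Filters that drop low genes moved medians because they remove members: to -0.083 over all members, -0.11 for Cyp1a, -0.24 for Cyp2a and -0.10 for Cyp2j. The count of signs left out Arnt, Nfe2l2, Pdk4, Angptl4, Onecut1, Cish, Igf1 and Igfals. Of the 67 other named genes 51 kept their sign throughout. The other 16 did not, and they include Hmox1 (0.24), Slco1a4 (0.22) and Fabp4 (0.14), whose sign rests on NS-DADm replicate 4. Without single arrays Cyp1b1 ran from -0.061 to 0.02, Cyp2ab1 from -0.06 to 0.081 (-0.029 with array weights), Cyp2d26 from -0.024 to 0.012 (0.002 after median subtraction), Cyp2d40 from -0.074 to 0.175 (-0.008 after quantile normalization), Cyp2e1 from -0.011 to 0.015, Cyp2j6 from -0.161 to 0.015, Cyp2r1 from -0.08 to 0.13, Cyp2s1 from -0.097 to 0.027 (0.003 after quantile normalization, 0.0 after median subtraction), Cyp2t4 from -0.114 to 0.009, Cyp2w1 from -0.093 to 0.016, Cyp3a16 from -0.03 to 0.08, Cyp4a12b from -0.084 to 0.053 (0.019 with array weights), Fabp4 from -0.068 to 0.23, Hmox1 from -0.059 to 0.388, Sgms2 from -0.108 to 0.041 and Slco1a4 from -0.063 to 0.407 (-0.013 with array weights). Nqo1 passed with the filter at the median (adjusted p = 0.0494), trended variances (0.0496), array weights (0.0327) and the replicate block (0.0225), and Vnn1 with both filters (0.0428 and 0.0454), quantile normalization (0.0341), trended variances (0.0288) and array weights (0.0273). Array weights also brought Socs2 (0.0395), Oat (0.0393), Ephx2 (0.0377) and Bcl6 (0.0448) past the threshold, trended variances Ephx2 (0.0288), and the block Socs2 (0.000848) and Oat (0.0177). The number of arrays, and signals near either end of the range, limit what could be detected.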
